A study of Sus scrofa with 8 samples.

Results

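DLC1, TNS1, MICAL2, NEDD9, CPQ, PLA2G4A, WLS, STK17B and SNX18 are 9 pig genes whose loci carried long stretches of acetylated histone H3 (H3K27ac) in embryonic fibroblasts. They were chosen by that acetylated length in the comparison described here, from 16298 protein-coding genes on the 18 autosomes and X, so their differences between the cell types are a description and carry no test. H3K27ac, acetylation of lysine 27 of histone H3, marks active promoters and enhancers, and was mapped by ChIP-seq. The pEF libraries, numbered 1 and 2, came from porcine embryonic fibroblasts labelled as fetal, embryonic day 30. Pre-gastrulation epiblast stem cells, with the stage given as day 10 and the tissue as embryonic epiblast, gave the pgEpiSC libraries, numbered 1 and 4. No genetic change or treatment is named in the labels, which also leave unsaid whether the libraries within a cell type have a common animal, line or culture, so any p-value measures only the spread between these libraries. Each of the 4 H3K27ac libraries had its own input library of unprecipitated chromatin.

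A fibroblast holds its substrate through focal adhesions, in which integrins are coupled to actin filaments by adaptor proteins. DLC1, TNS1, NEDD9 and MICAL2 belong to this machinery by textbook role. The other 5 genes do not code for structural adhesion proteins: PLA2G4A acts in lipid signalling, WLS in WNT secretion, SNX18 in membrane trafficking, STK17B is a protein kinase and CPQ a peptidase. The group is therefore named by its long acetylation and not by a single pathway.

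The values come from deposited islands, regions called for holding more ChIP reads than their surroundings. The acetylated length of a gene is the number of kb covered by islands within the gene and 10 kb on either side. Enrichment is the number of ChIP reads over the input reads scaled to the same library size. Reads, enrichment and island counts take in whole islands, also where these run past the 10 kb. ChIP reads inside islands numbered 42444995 in pEF 1, 46383051 in pEF 2, 29679982 in pgEpiSC 1 and 38230571 in pgEpiSC 4.

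The libraries of the types differed over the whole genome. Islands of at least 2-fold enrichment made up 84.7% and 85.6% of the islands in pEF 1 and pEF 2, against 37.1% and 27.8% in pgEpiSC 1 and pgEpiSC 4. Over all genes the median acetylated length ran the other way, at 7.4 and 7.0 kb in pEF 1 and pEF 2, against 11.4 and 12.1 kb in pgEpiSC 1 and pgEpiSC 4. The 10 fibroblast markers summed to 279 and 271 kb in pEF 1 and pEF 2 and to 74.7 and 67.7 kb in pgEpiSC 1 and pgEpiSC 4, where COL1A2, COL3A1, TWIST1 and LUM had no island. The 9 epiblast markers summed to 25.8 and 33.4 kb in pEF 1 and pEF 2, where NANOG, SALL4, PRDM14 and OTX2 had no island, and to 277 and 283 kb in pgEpiSC 1 and pgEpiSC 4. By count, 7 of the 10 fibroblast markers were longer in both pEF libraries than in either pgEpiSC library, with PDGFRB, DCN and THY1 overlapping between the types, and all 9 epiblast markers were longer in both pgEpiSC libraries. Of 5 smooth muscle markers, 4 were longer in both pEF libraries than in either pgEpiSC library, with sums of 139 and 113 kb in pEF 1 and pEF 2 and 67.2 and 80.5 kb in pgEpiSC 1 and pgEpiSC 4. Of 6 endothelial markers, ERG alone was longer in both pEF libraries, 4 were longer in both pgEpiSC libraries and KDR had no island. Their sums were 106 and 131 kb in pEF 1 and pEF 2, of which ERG gave 90.2 and 107 kb, and 97.3 and 92.7 kb in pgEpiSC 1 and pgEpiSC 4. Of 5 blood markers, 4 were longer in both pgEpiSC libraries, and so were all 4 chondrocyte markers. Of 5 skeletal muscle markers, 1 was longer in both pEF libraries and 2 in both pgEpiSC libraries. Of 3 measured neural markers, 1 was longer in both pEF libraries. Greater length in pgEpiSC was thus not limited to epiblast markers. The part of enrichment differences and of smooth muscle markers in the results was not tested.

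Taken over all 9 genes with their flanks, islands covered 1584 and 1517 kb in pEF 1 and pEF 2, against 249 and 213 kb in pgEpiSC 1 and pgEpiSC 4. This was 65.7% and 62.9% of the windows in the pEF libraries and 10.3% and 8.85% in the pgEpiSC libraries. Both pEF libraries exceeded both pgEpiSC libraries at all 9 genes, which the choice of the genes fixed; the same order held for 21.9% of all genes. Of the acetylated length, 95.1% and 94.7% lay in islands of at least 2-fold enrichment in pEF 1 and pEF 2, against 36.9% and 20.2% in pgEpiSC 1 and pgEpiSC 4. Long genes dominate the group: 7 of the 9 were above the 92nd percentile of gene length, and only STK17B and SNX18 were of ordinary size.

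**Figure D1:**
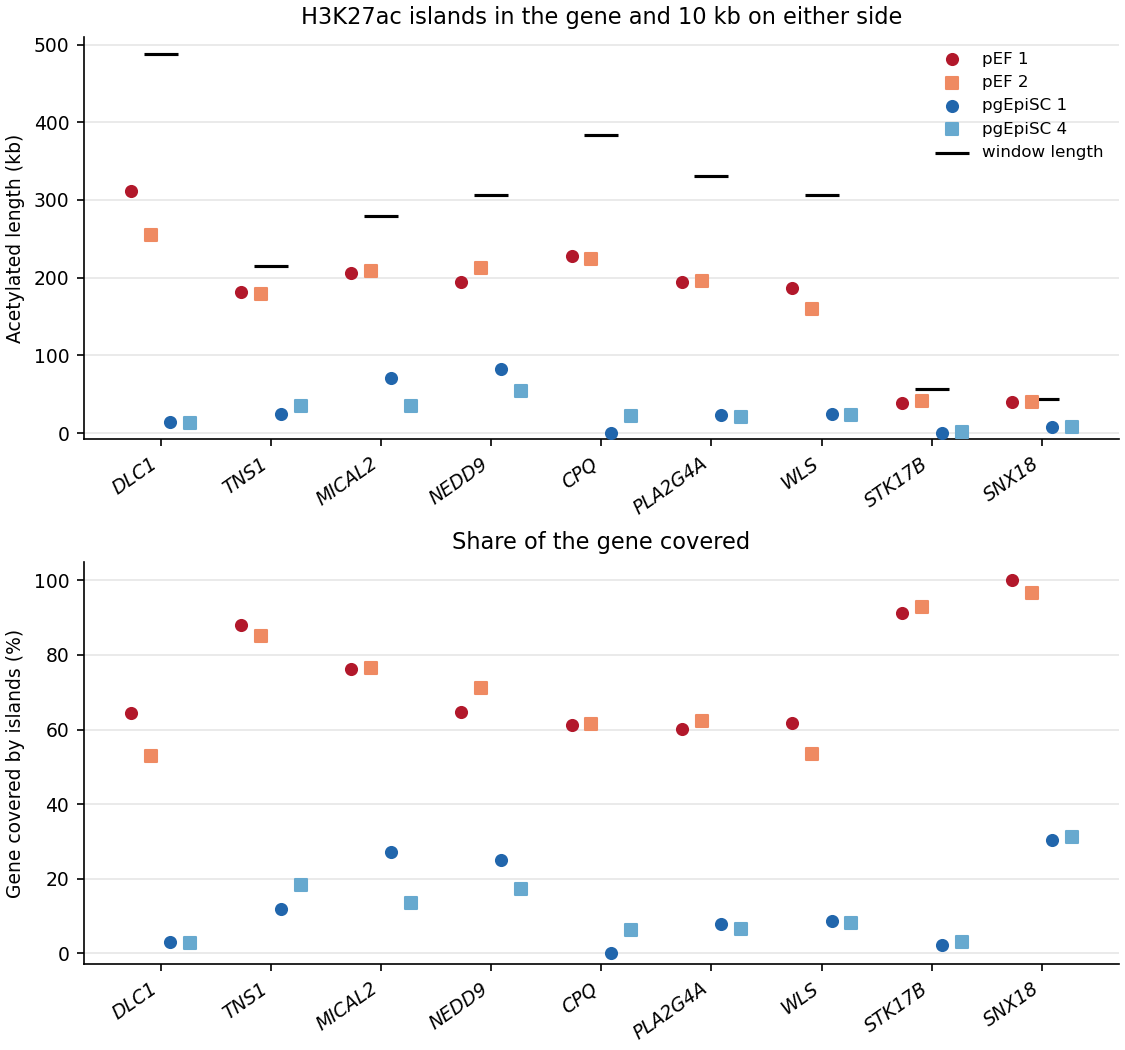
Acetylated length (kb) and covered share of the gene (%) of the 9 genes, with 1 point for each pEF and pgEpiSC library. The pEF points lie above the pgEpiSC points at every gene, a separation fixed by how the genes were chosen, and the smallest pEF share is 52.8%.

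DLC1 codes for a GTPase-activating protein that acts at focal adhesions, and tensins are among its binding partners. Its acetylated length was 311 kb in pEF 1 and 255 kb in pEF 2, against 14.0 kb in pgEpiSC 1 and 12.6 kb in pgEpiSC 4. Islands covered 64.5% and 52.8% of the gene in pEF 1 and pEF 2, and 2.99% and 2.70% in pgEpiSC 1 and pgEpiSC 4. The gene was broken into 27 and 29 islands in pEF 1 and pEF 2, the most of any of the 9, and the pgEpiSC libraries had 4 and 3 islands. Enrichment was 5.67 and 5.53 in pEF 1 and pEF 2, against 1.70 and 1.53 in pgEpiSC 1 and pgEpiSC 4. DLC1 had the third-ranked difference of all genes in mean acetylated length, the measure by which it was chosen. Its log2 fold change, on the log2(kb + 1) scale used throughout for length, was 4.31. The pEF libraries differed between themselves by 56.6 kb, more than at any other of the 9 genes, and lay far above both pgEpiSC libraries.

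TNS1 codes for tensin 1, an adaptor between integrin tails and actin filaments. Islands spanned 182 kb in pEF 1 and 180 kb in pEF 2, against 24.6 kb in pgEpiSC 1 and 35.6 kb in pgEpiSC 4. The share of the gene covered was 88.1% and 85.1% in pEF 1 and pEF 2, and 12.0% and 18.2% in pgEpiSC 1 and pgEpiSC 4. This was the highest share among the 7 long genes in both pEF libraries. The longest island was 80.4 kb in pEF 1 and 58.2 kb in pEF 2, against 7.4 kb in pgEpiSC 1 and 7.0 kb in pgEpiSC 4. Enrichment was 6.42 and 6.12 in pEF 1 and pEF 2, against 1.65 and 1.63 in pgEpiSC 1 and pgEpiSC 4. In length, TNS1 had a log2 fold change of 2.57.

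NEDD9 codes for a scaffold of the CAS family that focal adhesion kinase and Src phosphorylate at adhesions. It was the gene with the most acetylation in pgEpiSC, at 82.4 kb in pgEpiSC 1 and 53.8 kb in pgEpiSC 4, beside 195 kb in pEF 1 and 212 kb in pEF 2. Covered shares were 64.7% and 71.2% in pEF 1 and pEF 2, and 25.0% and 17.3% in pgEpiSC 1 and pgEpiSC 4. The number of islands was similar in all libraries, at 18 and 13 in pEF 1 and pEF 2 and 15 and 14 in pgEpiSC 1 and pgEpiSC 4, so the types differed in island length: the longest island was 50.8 and 60.4 kb in the pEF libraries and 13.4 and 7.0 kb in the pgEpiSC libraries. Enrichment reached 7.91 and 8.92 in pEF 1 and pEF 2, against 1.97 and 2.04 in pgEpiSC 1 and pgEpiSC 4. Its log2 fold change, 1.59, was the smallest of the 9.

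MICAL2 codes for a flavin monooxygenase that oxidises actin and thereby takes filaments apart. Its acetylated length was 207 kb in pEF 1 and 209 kb in pEF 2, against 70.4 kb in pgEpiSC 1 and 35 kb in pgEpiSC 4. The pEF libraries differed by 2.0 kb and the pgEpiSC libraries by 35.4 kb. In pEF the locus was made of few, long islands, 7 and 6 in number with the longest at 79.4 and 91.0 kb, whereas pgEpiSC 1 and pgEpiSC 4 had 13 and 8 islands of at most 10.4 and 8.40 kb. Enrichment was 8.85 and 6.42 in pEF 1 and pEF 2, and 1.77 and 1.79 in pgEpiSC 1 and pgEpiSC 4. The pEF 1 value takes in the whole of a 35.2 kb island with 16.8-fold enrichment, centred 21.3 kb beyond the gene. Its log2 fold change in length was 2.04.

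PLA2G4A codes for cytosolic phospholipase A2, which frees arachidonic acid from membranes for the cyclooxygenases. Islands covered 194 and 196 kb in pEF 1 and pEF 2, against 24 and 20.4 kb in pgEpiSC 1 and pgEpiSC 4. The covered share was 60.2% and 62.4% in pEF 1 and pEF 2, and 7.71% and 6.55% in pgEpiSC 1 and pgEpiSC 4. Enrichment was 6.41 and 7.23 in pEF 1 and pEF 2, against 1.58 and 1.62 in pgEpiSC 1 and pgEpiSC 4. The difference in length came to 3.08 on the log2 scale, and libraries of a type differed by at most 3.6 kb.

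WLS codes for the membrane carrier that brings lipid-modified WNT proteins to the cell surface. It had 187 kb in pEF 1 and 159 kb in pEF 2, against 24.6 kb in pgEpiSC 1 and 23.6 kb in pgEpiSC 4. Its enrichment in pEF was the lowest of the 9 genes, at 4.52 and 5.11 in pEF 1 and pEF 2, while its values of 2.06 and 2.16 in pgEpiSC 1 and pgEpiSC 4 were high among the pgEpiSC values. Islands of at least 2-fold enrichment still covered 166 and 145 kb in pEF 1 and pEF 2, against 14.2 and 10 kb in pgEpiSC 1 and pgEpiSC 4. For WLS the log2 fold change in length was 2.79.

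CPQ codes for a secreted carboxypeptidase. It was the only one of the 9 with no island in a library: acetylated length was 228 kb in pEF 1 and 225 kb in pEF 2, against 0 kb in pgEpiSC 1 and 22.4 kb in pgEpiSC 4. The 7 islands of pgEpiSC 4 had an enrichment of 1.60, compared with 7.15 and 6.82 in pEF 1 and pEF 2. The log2 fold change of 5.55 was the largest of the 9 but rests on which pgEpiSC library is used, being 3.28 without pgEpiSC 1 and 7.83 without pgEpiSC 4. In kb the means were 226 ± 2.55 in pEF and 11.2 ± 15.8 in pgEpiSC (SD, n = 2 each).

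STK17B codes for a serine/threonine kinase of the death-associated protein kinase family. In a gene of 36.3 kb, its acetylated length with flanks was 39.0 kb in pEF 1 and 41.6 kb in pEF 2, against 0.800 kb in pgEpiSC 1 and 1.60 kb in pgEpiSC 4. The gene was covered to 91.2% and 92.8% in pEF 1 and pEF 2, and to 2.20% and 3.02% in pgEpiSC 1 and pgEpiSC 4. Each pgEpiSC library had 1 island, with 84 ChIP reads in pgEpiSC 1 and 124 in pgEpiSC 4. The enrichment of that island was 2.26 and 1.15 in pgEpiSC 1 and pgEpiSC 4, beside 6.39 and 6.42 over the islands of pEF 1 and pEF 2. STK17B had a log2 fold change in length of 4.25.

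SNX18 codes for a sorting nexin that bends membranes in endocytosis. Its acetylated length was 40.4 kb in pEF 1 and 40.6 kb in pEF 2, against 8.0 kb in pgEpiSC 1 and 8.40 kb in pgEpiSC 4. Islands covered 100% and 96.7% of this gene of 24.4 kb in pEF 1 and pEF 2, and 30.4% and 31.3% in pgEpiSC 1 and pgEpiSC 4, the highest pgEpiSC shares of the group. Enrichment was 7.13 and 5.42 in pEF 1 and pEF 2, against 1.94 and 1.91 in pgEpiSC 1 and pgEpiSC 4. SNX18 had one of 2.17 in length.

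The reads within islands were set against island length, since a sum of reads grows with the length by which the genes were chosen. Per kb of island, scaled to all ChIP reads in the library's islands (reads per 1e6, RPM), DLC1 held 3.97 and 3.8 RPM in pEF 1 and pEF 2, against 2.46 and 2.10 RPM in pgEpiSC 1 and pgEpiSC 4. Over the 9 genes the range was 3.16 to 7.73 RPM per kb in pEF 1 and 3.55 to 6.22 in pEF 2. In pgEpiSC 1 and pgEpiSC 4 it was 1.78 to 3.54 and 1.76 to 2.70. Reads were those of whole islands but kb were clipped to the window, so the values are too high where islands run past it. The 7.73 of SNX18 in pEF 1 is such a value, with an island of 61.0 kb at a window of 44.4 kb. The ranges of pEF 1 and pgEpiSC 1 overlapped, with WLS lowest in pEF 1 and the single short island of STK17B highest in pgEpiSC 1. Enrichment spanned 4.52 to 8.92 in pEF libraries and 1.15 to 2.26 in pgEpiSC libraries, without overlap. Set against the median island of the same library, the values were 1.30 to 2.58 in pEF libraries and 0.691 to 1.29 in pgEpiSC libraries, so the ranges met almost without a gap. Islands of at least 5-fold enrichment covered 22 to 208 kb of each locus in pEF and 0 kb of all 9 in both pgEpiSC libraries. Over the whole genome, the median island had an enrichment of 3.47 and 3.46 in pEF 1 and pEF 2, against 1.80 and 1.67 in pgEpiSC 1 and pgEpiSC 4. The share of all islands that reach 5-fold was not computed, so the 0 kb is not read as particular to these loci. Input reads per kb within the islands were 0.977 to 1.06 times the median island of the library in pEF. In pgEpiSC they were 0.908 to 1.45 times that median. The part of input in the enrichment was not tested.

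**Figure D2:**
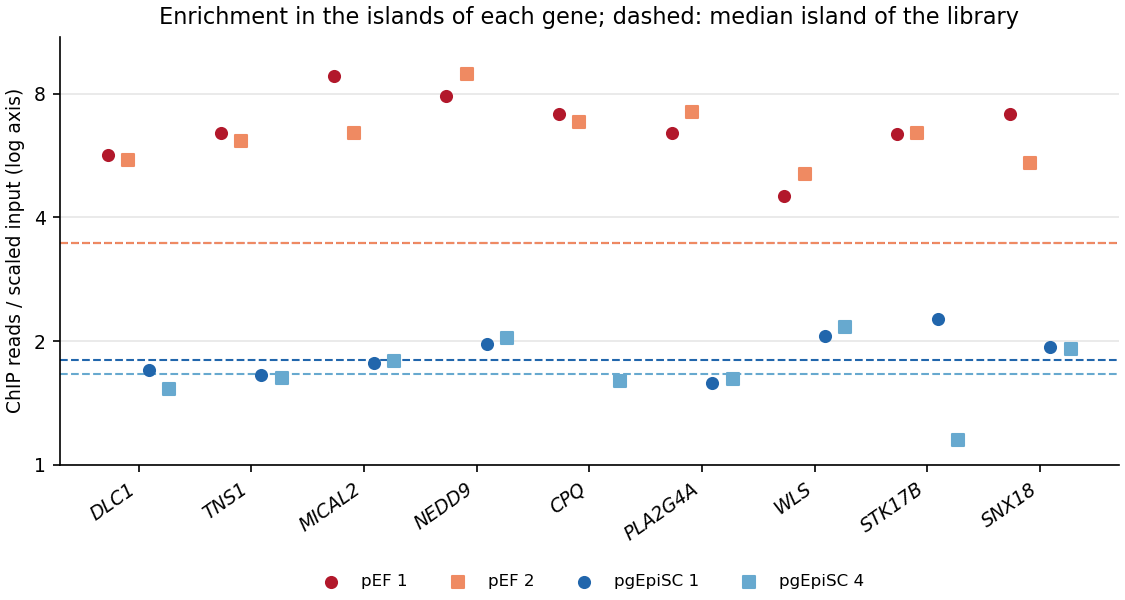
ChIP reads over scaled input within the islands of each of the 9 genes, with 1 point for each pEF and pgEpiSC library. The pEF points span 4.52 to 8.92 and the pgEpiSC points 1.15 to 2.26, and CPQ has no point for pgEpiSC 1, which had no island there.

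Within the genes the acetylation was uneven. MICAL2 was covered over 97.9% and 97.7% of its middle part in pEF 1 and pEF 2, when the gene is cut into 3 equal parts, but over 31.9% and 34.2% of the part with the lowest coordinates. Its first 30.3 kb from the end with the lower coordinate held no pEF island. The reference table gave no strand, so the ends are named by coordinate and not as start or stop of transcription. CPQ had an island at its low end in both pEF libraries but was sparse behind it, with no pEF island from 3.74 to 40.7 kb inside the gene and with 22.6% and 28.5% of the low part covered in pEF 1 and pEF 2 against 82.2% and 82.5% of the middle part. PLA2G4A was covered over 36.3% and 38.6% of its low part and 86.2% and 84.0% of its high part in pEF 1 and pEF 2, and had the longest stretch without a pEF island, 55.2 kb, which began 15.8 kb inside the low end. NEDD9 ran the other way, with 80.8% and 91.3% of its low part and 54.1% and 59.8% of its high part covered in pEF 1 and pEF 2. Every base of STK17B and SNX18 lay in an island of at least 1 pEF library. Both pEF libraries ranked the 3 parts alike at DLC1, NEDD9, CPQ and PLA2G4A.

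**Figure D3:**
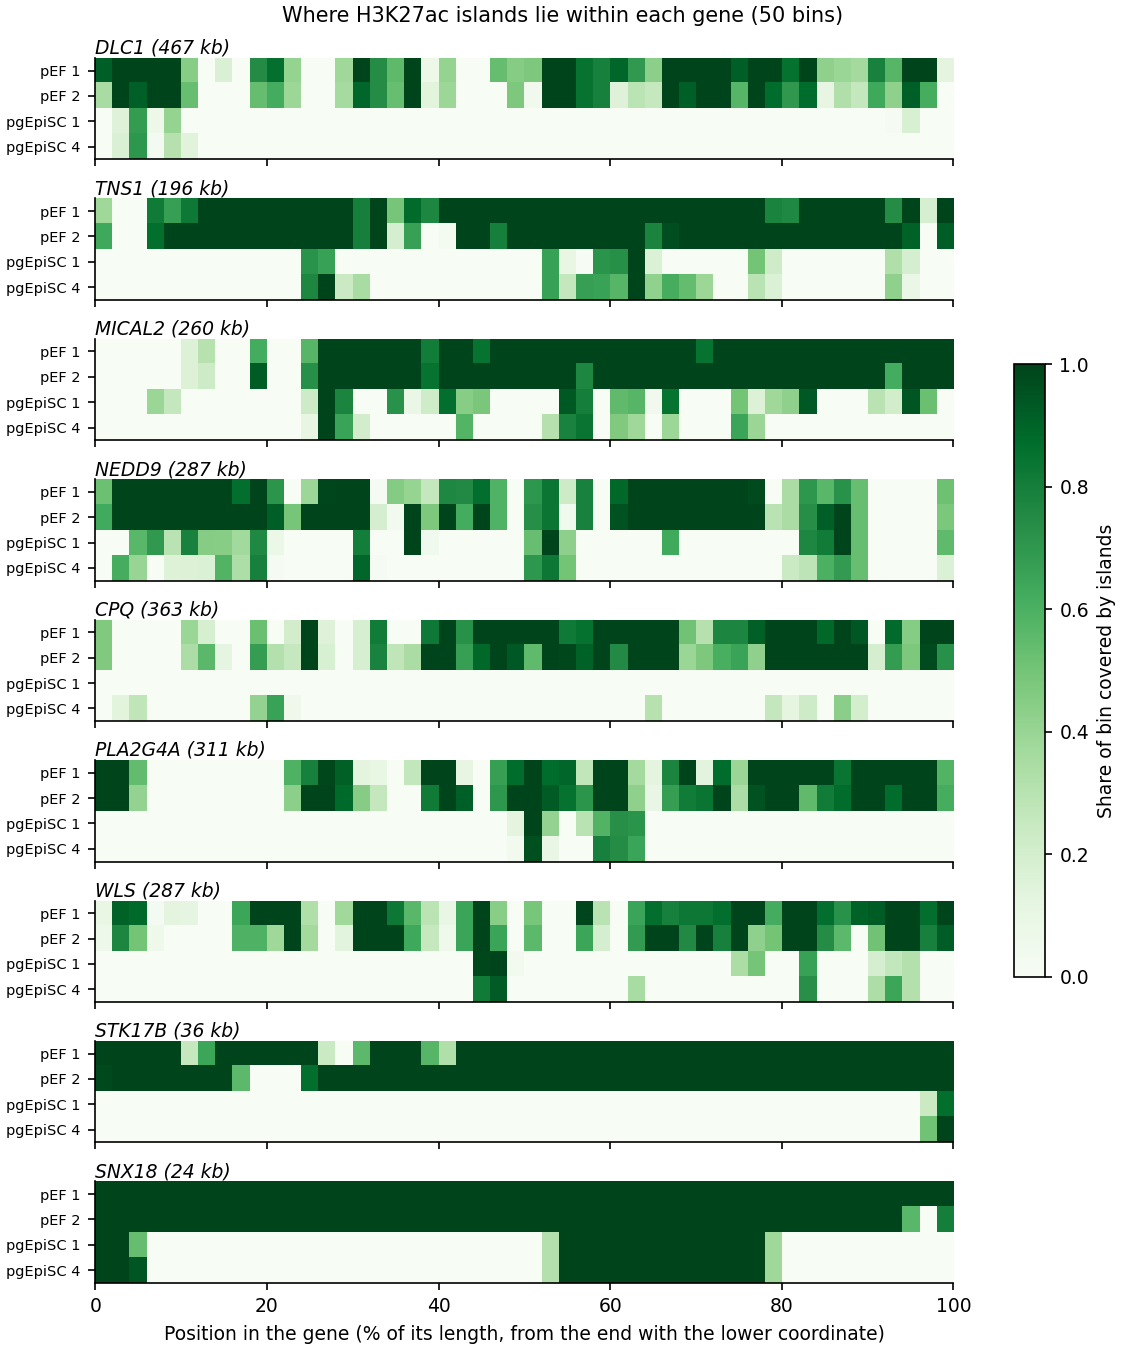
Acetylation along each of the 9 genes without flanks, drawn from the lower to the higher coordinate, for the pEF libraries above and the pgEpiSC libraries below. In pEF, MICAL2 has no island over its first 30.3 kb from the low end, and gaps follow a covered low end at CPQ and PLA2G4A.

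An island within 2 kb of a gene end was present in both pEF libraries and in neither pgEpiSC library at 6 of the 9 genes, a property of 729 of all 16298 genes. Ranked by difference in length, DLC1, CPQ, PLA2G4A, MICAL2, TNS1 and WLS held places 1, 2, 3, 5, 6 and 7 among those 729. SLC8A1, with a difference of 171.0 kb, and ADAMTSL3, with 148 kb, stood at places 4 and 8. The ranking reuses the length by which the 9 genes were chosen. Long coverage in pEF can also bring an island to a gene end. Neither the ranking nor the end islands are therefore separate support. At PLA2G4A the end island lay at the low end, where PTGS2 overlaps the gene, as described below. NEDD9 had an end island in every library. STK17B had islands at both ends in pEF and at the high end alone in pgEpiSC. SNX18 had an island at its low end in all 4 libraries. In pgEpiSC these 3 genes thus had an island at an end, and at STK17B it was the only one. NEDD9 and SNX18 also had pgEpiSC islands away from their ends. NEDD9 had 15 and 14 islands in pgEpiSC 1 and pgEpiSC 4, and SNX18 had 2 in each.

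The most enriched island of a locus overlapped between pEF 1 and pEF 2 at 6 of the 9 genes. At PLA2G4A it lay at chr9:128123201-128162200 in pEF 1, with 11.3-fold enrichment, and at chr9:128144401-128162400 in pEF 2, with 20.8-fold enrichment, inside the gene near the high end. At NEDD9 it lay at chr7:7979601-8030400 in pEF 1, with 10.9-fold enrichment, and at chr7:7979201-8032200 in pEF 2, with 13.2-fold enrichment. At CPQ it lay at chr4:39800201-39819200 in pEF 1, with 16.8-fold enrichment, and at chr4:39773401-39821000 in pEF 2, with 12.5-fold enrichment. Coordinates are those of the island lists, in which the genome build is not named. These islands did not reach an end of their genes.

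The strongest islands of all 4 libraries overlapped at 3 genes, WLS, STK17B and SNX18. At STK17B and SNX18 the pEF islands were long and held the short pgEpiSC islands, whereas at WLS the islands of both types were of similar length. The WLS island lay at chr6:144365201-144377200 in pEF 1, with 12.9-fold enrichment, and at chr6:144365201-144378400 in pEF 2, with 11.9-fold enrichment. The corresponding islands were chr6:144369001-144380600 in pgEpiSC 1, with 2.71-fold enrichment, and chr6:144370001-144380000 in pgEpiSC 4, with 3.11-fold enrichment. All 4 were centred at 44.8% to 46.1% of the gene's length. The types thus shared the position of the WLS island and differed in its enrichment and in the acetylation around it.

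Base by base, the pgEpiSC islands lay mostly inside the pEF islands. At DLC1, STK17B and SNX18, 100% of the bases covered in any pgEpiSC library were also covered in a pEF library. The share was 99.5% at TNS1, 95.4% at MICAL2, 92.8% at WLS, 92.4% at NEDD9, 90.1% at PLA2G4A and 72.3% at CPQ. Since pEF islands covered over 52% of each gene, some of this overlap follows from their extent alone. Bases covered in both pEF libraries and in no pgEpiSC library came to 232 kb at DLC1, 187 kb at CPQ, 148 kb at PLA2G4A, 131 kb at MICAL2, 128 kb at TNS1, 124 kb at WLS and 108 kb at NEDD9. The shorter loci had 32.8 kb at STK17B and 30.8 kb at SNX18. The overlap of the pEF libraries, as bases shared over bases covered in either, was 0.745 to 0.951 at the 9 genes with a median of 0.801, beside a median of 0.671 over all genes. For the pgEpiSC libraries the median was 0.536 at the 9 genes and 0.600 over all genes. Such overlap can grow with covered length, by which the genes were chosen in pEF, and this was not tested.

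The acetylation stopped close to some genes and ran on past others. Between 10 and 50 kb from PLA2G4A, islands covered 12.5% and 8.50% of the low side and 15.4% and 2.94% of the high side in pEF 1 and pEF 2. MICAL2 was flanked by 78.3% and 71.3% on the low side and by 85.3% and 89.8% on the high side in pEF 1 and pEF 2. The high side of SNX18 was covered to 95.5% and 92.5% in pEF 1 and pEF 2, against 11.5% in each pgEpiSC library, and the island over the gene reached 33.8 and 28.8 kb past that end in pEF 1 and pEF 2. At the low end of MICAL2, no pEF island over the gene reached past the end, and the first 30.3 kb inside the gene held none. The low-side coverage of MICAL2 was therefore set apart from the acetylation within the gene. Coverage in pEF thus dropped outside PLA2G4A and stayed high on the high sides of MICAL2 and SNX18.

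**Figure D4:**
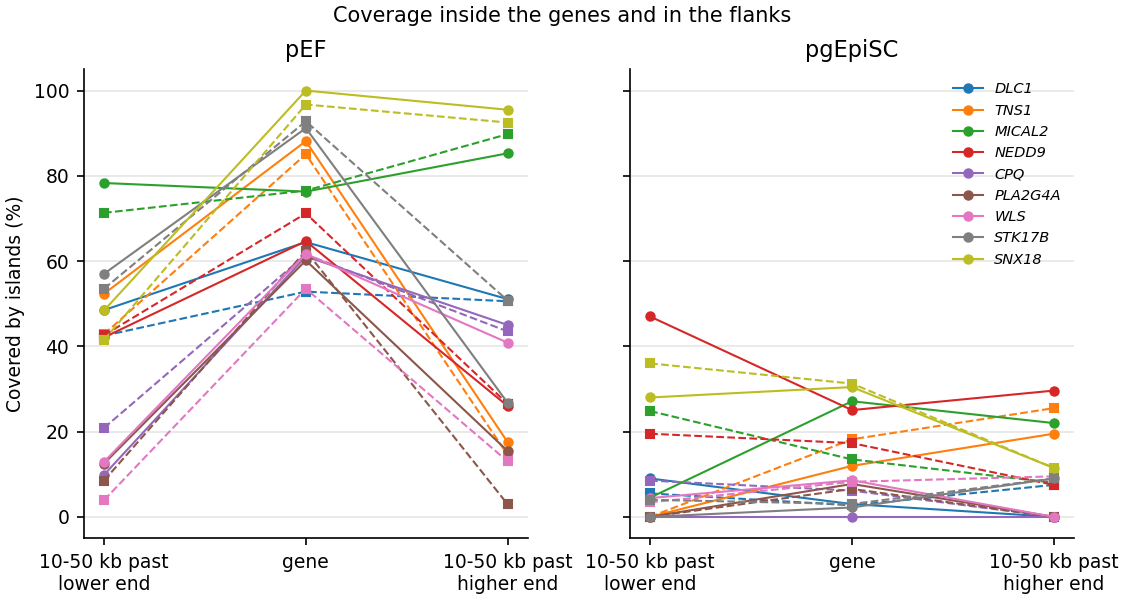
Share of bases covered by islands (%) in the gene and between 10 and 50 kb to its low and high side, for each of the 9 genes and each pEF and pgEpiSC library. MICAL2 and the high side of SNX18 stay above 71% in pEF, while PLA2G4A stays at or under 15.4% outside the gene.

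Neighbours shared some of these islands. PARVA, which codes for the adhesion protein alpha-parvin, lies 14.4 kb from MICAL2 and had 139 and 130.0 kb in pEF 1 and pEF 2, against 13.8 and 29.0 kb in pgEpiSC 1 and pgEpiSC 4. PTGS2 is the inducible cyclooxygenase that uses the arachidonic acid freed by PLA2G4A. In the gene table it overlaps PLA2G4A itself at the low end, with a gap of 0 kb. It had 20.7 and 15.8 kb in pEF 1 and pEF 2, with no island in pgEpiSC. The islands at the low end of PLA2G4A therefore cannot be assigned to 1 of these genes. The most enriched pEF 1 island of the MICAL2 window, at chr2:47305801-47341000 with 16.8-fold enrichment, was centred 21.3 kb beyond the high end of the gene. Near NEDD9, TMEM170B lies 0.266 kb away and had 15.2 and 15 kb in pEF 1 and pEF 2, against 18.8 and 5.20 kb in pgEpiSC 1 and pgEpiSC 4, so the groups overlapped at that neighbour.

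The other genes of these pathways were tested in 2 lists by limma on log2(kb + 1), two-sided, with Benjamini-Hochberg adjustment over all 16298 genes. Of all genes, 10.9% were longer in pEF and 31.9% longer in pgEpiSC past an adjusted p of 0.05. Among 40 focal adhesion genes, 8 were longer in pEF and 6 in pgEpiSC, with a median log2 fold change of 0.10, beside -0.46 over all genes. Among 41 measured relatives and partners of the 9 genes, 4 were longer in pEF and 12 in pgEpiSC, with a median of -0.35. With the median gene of every library set to the same level, where the median difference had been -0.63 over 15691 genes with an island, the counts became 19 and 5 for focal adhesion and 11 and 7 for relatives and partners, longer in pEF and in pgEpiSC in that order. Over both lists together, 12 of 77 genes were longer in pEF, or 29 after that centring. With any single library left out, between 1 and 3 focal adhesion genes were called longer in pEF.

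In the focal adhesion list, PARVA had 134.7 ± 6.65 kb in pEF and 21.4 ± 10.7 kb in pgEpiSC, a log2 fold change of 2.69. Pairs of means here and below are given with SD, n = 2 each. Where brackets open with a number, it is the log2 fold change. The PARVA window overlaps that of MICAL2, a gene chosen by its length, so no test is read from PARVA. TLN2, a talin that activates integrins, had 173 ± 11.7 kb in pEF and 51.2 ± 0.283 kb in pgEpiSC (1.73, limma adjusted p = 0.0054). FERMT1, a kindlin, had 38.1 ± 0.990 kb in pEF and 9.42 ± 4.53 kb in pgEpiSC (1.98, limma adjusted p = 0.034, and 0.12 when the gene body was counted without its flanks). TNS3, a tensin like TNS1, was longer in pgEpiSC, with 17.5 ± 6.65 kb in pEF and 172 ± 19 kb in pgEpiSC (-3.27, limma adjusted p = 0.011). PARVB, the parvin next in the family to PARVA, likewise had 14.6 ± 4.81 kb in pEF and 84.3 ± 2.83 kb in pgEpiSC (-2.49, limma adjusted p = 0.012). SRC, a kinase that phosphorylates NEDD9, had 8.50 ± 4.95 kb in pEF and 46.6 ± 2.69 kb in pgEpiSC (-2.43, limma adjusted p = 0.033). TNS3 thus passed in the direction opposite to the untested difference at TNS1, and PARVB in the direction opposite to the difference at PARVA. Among islands of at least 2-fold enrichment alone, the calls for TNS3, PARVB and SRC ended, with limma adjusted p of 0.055, 0.14 and 0.27, and for SRC also in the gene body without flanks (0.062). PARVA remains in the counts given for this list.

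Among the relatives and partners, 4 were longer in pEF. PTGS2, with the values given above, is counted among them, but it overlaps the PLA2G4A window and so shares islands with a gene chosen by its length, and no test is read from it. PTGS1, the constitutive cyclooxygenase, had 20.4 and 6.60 kb in pEF 1 and pEF 2 and no island in pgEpiSC (limma adjusted p = 0.026, and 0.25 when the gene body was counted without its flanks). STK17A, the closest relative of STK17B, had 27.4 ± 6.20 kb in pEF and 13.7 ± 0.424 kb in pgEpiSC (log2 fold change 0.93, limma adjusted p = 0.041; 0.11 with islands of at least 2-fold enrichment). PTGES, a prostaglandin E synthase, was the fourth; it was named after its values were seen and had 23.4 and 25.8 kb in pEF 1 and pEF 2, against 11.6 and 14.0 kb in pgEpiSC 1 and pgEpiSC 4 (limma adjusted p = 0.023). Of the other listed genes of arachidonic acid metabolism, ALOX5 had 3.0 and 4.6 kb in pEF 1 and pEF 2, against 7.8 and 10 kb in pgEpiSC 1 and pgEpiSC 4 (limma adjusted p = 0.068), and ALOX5AP had 4.6 and 1.4 kb in pEF 1 and pEF 2, against 0 and 2.0 kb in pgEpiSC 1 and pgEpiSC 4 (limma adjusted p = 0.36). Relatives of the other members that were longer in pgEpiSC included CPE, a carboxypeptidase, with 1.96 ± 0.990 kb in pEF and 94.2 ± 4.95 kb in pgEpiSC (-5.05, limma adjusted p = 0.0050). PLA2G4D, a paralogue of PLA2G4A, had no island in pEF and 19.7 ± 3.36 kb in pgEpiSC (limma adjusted p = 0.0035; 0.44 with islands of at least 2-fold enrichment). STARD13, a relative of DLC1, had 110.2 and 159 kb in pEF 1 and pEF 2 and 79.0 and 81.8 kb in pgEpiSC 1 and pgEpiSC 4, and did not pass (limma adjusted p = 0.095). Of the 11 list genes named by rule, PLA2G4D alone kept its limma call whichever library was left out: 3 calls were lost without pEF 1, 2 without pEF 2, 7 without pgEpiSC 1 and 8 without pgEpiSC 4.

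**Figure D5:**
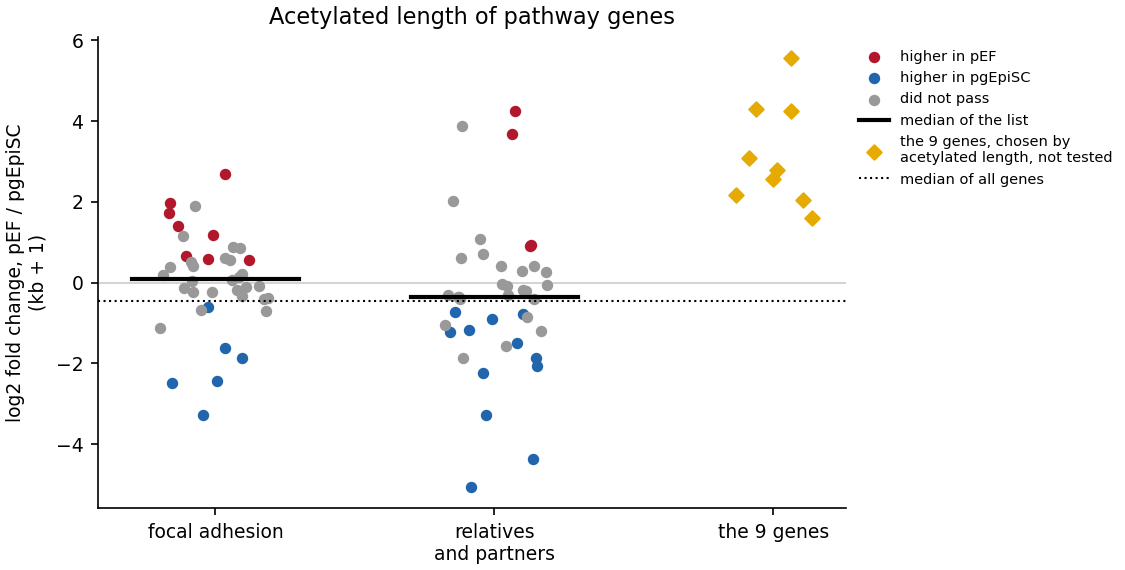
Log2 fold change in acetylated length, pEF over pgEpiSC, of each gene in the 2 lists and, untested, of the 9 genes chosen by their length. List medians are 0.10 and -0.35, beside -0.46 over all genes, and genes past the limma threshold lie on both sides of 0.

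ChIP reads in regions called in all 4 libraries were tested by edgeR's quasi-likelihood test over 13017 genes, of which 26.6% were higher in pEF and 26.4% higher in pgEpiSC. A region joined the overlapping islands of the libraries, and only reads inside a library's own islands were counted for it. The counts therefore grow with island length, and this measure is not separate from acetylated length. Of 67 genes of both lists with such a region, 30 were higher in pEF and 15 in pgEpiSC, and the median log2 fold change was 0.40, beside 0.02 over all genes. PARVA had a log2 fold change of 3.29 in this measure, from which no test is read because its window overlaps that of MICAL2. TNS3 was higher in pgEpiSC (-3.18, edgeR adjusted p = 0.0010). CPE and PARVB, longer in pgEpiSC, did not pass in shared regions (edgeR adjusted p = 0.38 and 0.22). Among the 9 genes, CPQ had no region called in all 4 libraries and could not be measured in this way.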

How the data were processed

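The 4 island lists, 1 per H3K27ac library, covered 2 pEF and 2 pgEpiSC libraries. The submitters' processing notes name the tools BWA 0.7.15, SAMtools 0.1.19 and SICER 1.1. The lists have no header. Their deposited counts are whole numbers of ChIP and of input reads per island. An island's deposited p-value is followed by its FDR, which reached 1.0, so no FDR limit had been applied. The deposited ratio, or fold, sets ChIP reads over scaled input reads. Neither duplicate removal nor the genome build is given in the sources used here.

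The 9 genes and the lists were chosen with earlier results of these data known. Gene positions came from a RefSeq table of Sscrofa11.1. It was used because, on 19 of 19 chromosomes, islands held more gene ends than positions shifted by 20 kb. PLA2G4C was not matched. A further planned list is not reported here. The table gives no strand and no sequence, so the planned transcription starts and promoter motifs were not analysed here. Windows were the gene with 10 kb on either side. Lengths in kb were clipped to them and covered shares to the gene. Reads, enrichment, island counts and longest islands used every whole island that overlapped a window.

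Acetylated length, as log2(kb + 1), was tested by limma 3.58.1 with a mean-variance trend. Reads inside each library's own islands, summed over joined regions called in all 4 libraries, were tested by edgeR 4.0.16 (quasi-likelihood, TMM), with DESeq2 1.42.0 as an alternative. Calls had an adjusted p under 0.05. Named list genes were up to 3 per list and direction with the largest absolute log2 fold change among those past the threshold. Islands held 29679982 to 46383051 ChIP reads per library, and whole depth was not given. Simulated data were used to test the fits and the overlap code. With 200 changed genes among 15299, limma on length recovered 0%, 0% and 75.5% at log2 fold changes of 1, 2 and 4. For reads, edgeR recovered 45.5% and 100% at log2 fold changes of 1 and 2. In the data far more genes passed, 10.9% and 31.9% by limma, and STK17A did so at a log2 fold change of 0.93. These recovery rates therefore do not carry over to the fits of the data. A gene that did not pass is still not shown to be unchanged. R 4.3.3, Python 3.11.15, numpy 2.4.6, pandas 2.3.3 and matplotlib 3.10.9 were used.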

Additional observations from a re-analysis of the deposited data

How the results depend on the processing

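No paired analysis was possible because the pEF and pgEpiSC libraries share only the number 1. At the 9 genes no alternative turned the direction of the difference, and the log2 fold change ranged most at CPQ (3.28 to 7.83) and least at WLS (2.67 to 3.59). Of 90 values at the 9 genes under the alternatives, 66 moved by less than the replicate spread and 24 by more. The 66 take in all 9 genes in every fit without 1 library and with a mean of at least 1 kb. With 2 libraries a type, leaving out 1 cannot exceed that spread, and the limit on mean length leaves fold changes as they were. Those values therefore do not show stability. With islands of at least 2-fold enrichment, and also with centring, 8 of the 9 genes moved by more. With islands of at least 2-fold enrichment alone, genes longer in pEF numbered 2691 and in pgEpiSC 1152; in pgEpiSC, limma called 0 focal adhesion genes (2 at an unadjusted p under 0.05, and 5 of 37 by edgeR in shared regions) and 2 relatives and partners, with 9 relatives and partners in pEF. With FDR under 1e-10, relatives and partners had 7 in pgEpiSC. Centred on the median gene, all genes in pEF numbered 3855, and in pEF focal adhesion had 19 and relatives and partners 11, and in pgEpiSC relatives and partners had 7. Leaving out 1 library at a time gave 549 to 827 genes longer in pEF and 1684 to 2188 in pgEpiSC. The same gave 1 to 3 (pEF) and 1 to 6 (pgEpiSC) focal adhesion genes, and 1 to 5 and 3 to 7 relatives and partners. In shared regions, edgeR gave 2211 to 3567 genes higher in pEF, with 18 to 31 list genes higher in pEF and 9 to 18 in pgEpiSC. The lone library left in an arm was assumed to vary like the others. With 2 libraries a type, the list calls are sensitive to 1 library, and the cause of these changes was not tested.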
